A study of Mus musculus with 6 samples.

Results

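The 10 genes described here are markers that are widely used to recognise astrocytes: *Gfap*, *Vim*, *Slc1a2*, *Slc1a3*, *Glul*, *Aqp4*, *Gja1*, *Aldh1l1*, *S100b* and *Fgfr3*. They were taken by name, as all probe sets of the array whose gene symbol is a name on this list. No cut on a measured value was applied. The markers, and the gene lists set beside them below, were chosen with earlier results of these data known. All 10 were on the array, out of 22527 genes with a symbol, and were measured by 34 of its 45077 probe sets. Each probe set combines the signals of several short probes into a single value for a transcript, or for transcripts that share the probed sequence.

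Cerebral cortex was collected from male mice, and its RNA was measured on 6 Affymetrix mouse arrays, in 3 groups of 2. The labels give an age of 16 weeks, which the methods state ahead of acclimatization, dosing and testing. The mice were therefore older when the cortex was collected. SAMP8 mice, a non-transgenic strain in which senescence comes early, received either water (SAMP8 control) or sugarcane top ethanolic extract (STEE-fed SAMP8) by mouth, and SAMR1 mice, a related strain that resists early senescence, received water. The extract was dosed at 20 mg/kg over 30 days and through the 8 days of behavioral testing that followed. All mice swam in a water maze, were housed singly, and drank the thymidine analog BrdU for part of the study. SAMP8 control against SAMR1 is a contrast of 2 whole strains, with every genetic difference between them, and STEE-fed SAMP8 against SAMP8 control asks how the extract changed expression within a strain. The arrays of the SAMP8 controls enter both contrasts, and a chance deviation in them would appear in both with opposite sign.

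Astrocytes are the glial cells that take up glutamate and potassium around synapses, turn glutamate into glutamine, couple to each other through gap junctions and cover blood vessels with their endfeet. In aging and injury they can become reactive, a state classically recognised by more of the intermediate filament proteins GFAP and vimentin. Some of the 10 markers are also made by other cells of the cortex, since oligodendrocytes can contain S100B and glutamine synthetase, and vessel cells contain vimentin. In a tissue homogenate, fewer cells of a type and less RNA per cell cannot be told apart.

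The values are log2 signals, given by the authors as a mean per group with 2 decimals. The signals of the single arrays were not used here, so no spread between mice could be computed, no difference was tested, and neighbouring groups in the order of a gene's levels cannot be said to differ beyond their spread. Rounding alone makes a difference of 2 such means uncertain by 0.01. A difference of at least 0.25 on the log2 scale, or 1.19-fold, served as a mark of size and is not a test. The group medians over all probe sets were 4.17 in SAMR1 mice, 4.15 in SAMP8 controls and 4.15 in STEE-fed SAMP8 mice. The 12 neuron markers looked up as a check of the tissue all lay above the median signal. *Ttr*, which encodes the transthyretin made by the choroid plexus, had signals of 10.20, 8.24 and 9.33 in the same order of groups. The part of choroid plexus tissue in the differences below was not tested.

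Across the astrocyte markers the differences were small. Each gene was represented by its brightest probe set, the set whose mean over the groups was highest. By these, 7 of the 10 genes were lower in SAMP8 controls than in SAMR1 mice, 1 was higher (*Gfap*) and 2 were equal (*Slc1a2* and *Vim*), with a median difference of -0.10 on the log2 scale against 0.00 over all genes. Of all genes, 49.1% were lower and 47.1% higher. *Fgfr3* was the only gene of the 10 lower by at least 0.25, and none was higher by as much. Over all genes, 3.84% were lower and 4.25% higher by at least 0.25 in this contrast, so a single lower gene among 10 does not set the list apart. With STEE, 5 genes were higher and 5 lower than in SAMP8 controls, the median was -0.01, and no gene reached 0.25, where 1.40% of all genes were higher and 1.22% lower by that much.

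**Figure D1:**
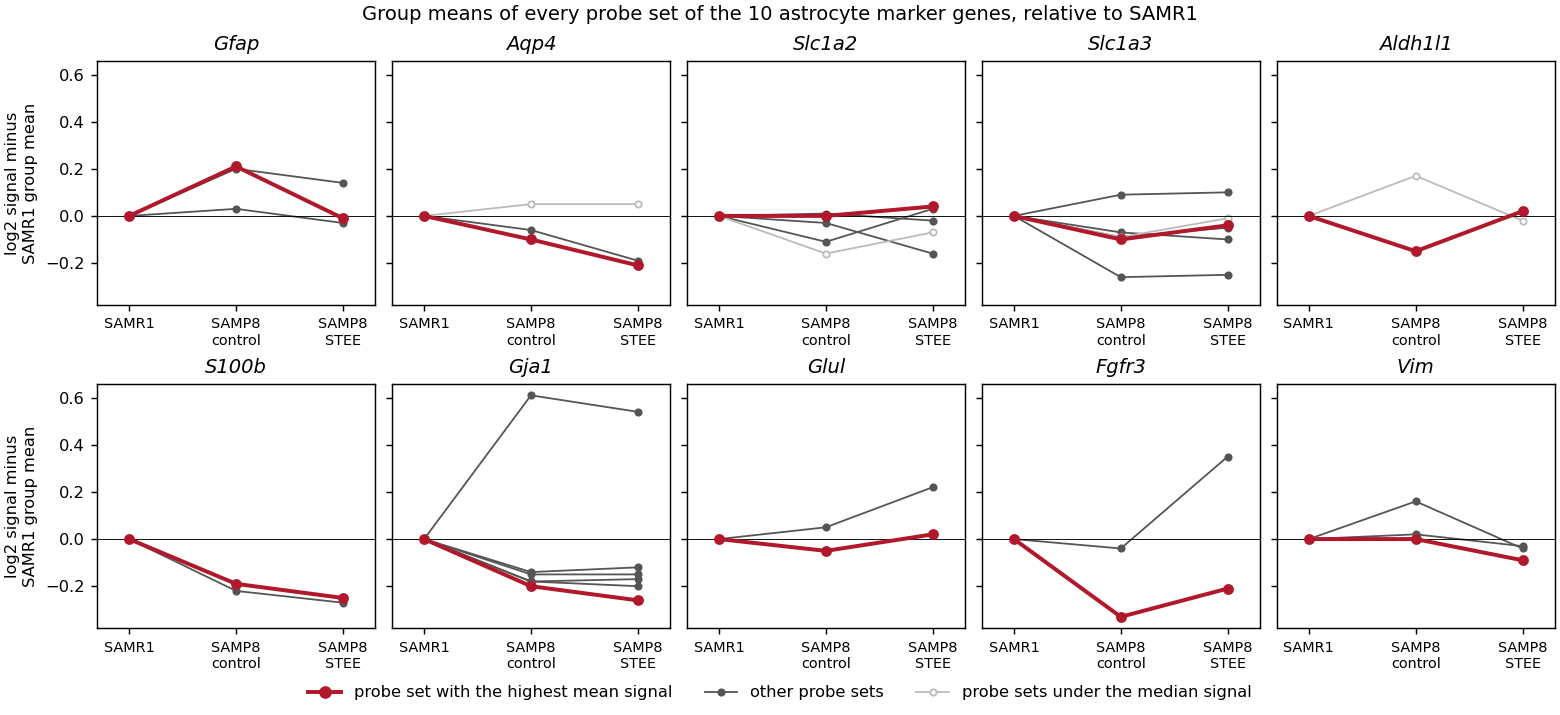
Group mean log2 signal of every probe set of the 10 astrocyte marker genes, minus its SAMR1 group mean (y axis), in the 3 groups (x axis). Each line is a probe set, red for the brightest set of the gene and open grey circles for sets under the median signal of the array; *Gfap* peaked in SAMP8 controls, *S100b* and *Aqp4* had their lowest red points in STEE-fed mice, and a single *Gja1* probe set stood at 0.61 in SAMP8 controls while the other 5 lay below 0.

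The intermediate filament genes *Gfap* and *Vim* form the cytoskeleton of astrocytes. *Gfap*, which encodes glial fibrillary acidic protein, had signals of 6.11 in SAMR1 mice, 6.32 in SAMP8 controls and 6.10 in STEE-fed mice at probe set 1440142_PM_s_at. The SAMP8 control mean was the highest of the 3, by 0.21 over SAMR1 mice, and the STEE-fed mean differed by -0.22 from the controls and by -0.01 from SAMR1 mice. Of all probe sets, 5.64% were higher by more in SAMP8 controls and 1.79% were lower by more with STEE, and both differences were within 0.25. Probe sets of similar signal were also read, in bins around 5.85 and 6.32, on either side of this set (6.18). There the 95th percentile between the strains was 0.32 and 0.34, so 0.21 lay inside it. The 5th percentile with STEE was -0.18 in both bins, so -0.22 lay beyond it. The other 2 *Gfap* probe sets had 5.19, 5.22 and 5.16 (1426509_PM_s_at) and 4.79, 4.99 and 4.93 (1426508_PM_at). Their differences had the same signs, 0.03 and 0.20 between the strains and -0.06 in both with STEE, so the size of the difference with STEE rested on a single probe set. At 1426508_PM_at the STEE-fed mean was still 0.14 over SAMR1 mice, and at 1426509_PM_s_at it differed from them by -0.03.

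*Vim*, which encodes vimentin, had 7.53 in SAMR1 mice, 7.53 in SAMP8 controls and 7.44 in STEE-fed mice at 1438118_PM_x_at. Its other probe sets had 6.92, 6.94 and 6.89 (1456292_PM_a_at) and 6.79, 6.95 and 6.75 (1450641_PM_at). The difference between the strains was thus 0.00, 0.02 and 0.16, and the difference with STEE was -0.09, -0.05 and -0.20. Taken over both filament genes, 5 of the 6 probe sets were higher and 1 was equal in SAMP8 controls against SAMR1 mice, and all 6 were lower with STEE. Of all probe sets, 46.5% were higher between the strains and 48.0% were lower with STEE. The 6 probe sets come from only 2 genes. None of the differences of *Gfap* and *Vim* reached 0.25, and since the SAMP8 control arrays enter both contrasts, the opposite signs are not separate observations.

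The proteins of glutamate handling are the transporters GLT-1 (*Slc1a2*) and GLAST (*Slc1a3*), which clear glutamate from the synaptic cleft, and glutamine synthetase (*Glul*), which converts it to glutamine. *Slc1a2* had signals of 11.45 in SAMR1 mice, 11.45 in SAMP8 controls and 11.49 in STEE-fed mice at 1438194_PM_at, and 10.06, 10.07 and 10.04 at 1439940_PM_at. The major glutamate transporter of the forebrain was therefore level across the groups to within 0.04 at both. Its remaining probe sets differed between the strains by -0.11 (1451627_PM_a_at), -0.03 (1433094_PM_at) and -0.16 (1459014_PM_at, under the median signal), and with STEE by 0.14, -0.13 and 0.09.

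*Slc1a3* had 9.25, 9.15 and 9.21 in SAMR1 mice, SAMP8 controls and STEE-fed mice at 1426340_PM_at, and 9.12, 9.05 and 9.02 at 1452031_PM_at. Of its 6 probe sets 5 were lower in SAMP8 controls than in SAMR1 mice, by differences between -0.26 and -0.07, and 1 was higher by 0.09 (1426341_PM_at, with 8.15, 8.24 and 8.25). The largest difference, at 1443749_PM_x_at, came from 8.37 in SAMR1 mice against 8.11 in SAMP8 controls and 8.12 in STEE-fed mice. With STEE all 6 stayed between -0.03 and 0.08 of the SAMP8 controls.

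*Glul* had 11.05, 11.00 and 11.07 at 1426236_PM_a_at and 8.52, 8.57 and 8.74 at 1426235_PM_a_at. The strain difference was -0.05 at the first and 0.05 at the second, without a common sign. With STEE both were higher, by 0.07 and 0.17, and 4.37% of all probe sets were higher by more than the latter. Over the 3 genes of glutamate handling, 9 of 13 probe sets were lower in SAMP8 controls than in SAMR1 mice, with a median of -0.07. Of all probe sets, 49.6% were lower in this contrast. With STEE 10 of 13 were higher, with a median of 0.04, where 47.3% of all probe sets were higher. Among genes at or over the median signal, 54.5% were higher with STEE. The SAMP8 control arrays enter both contrasts, so the opposite signs are not separate observations.

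The membrane channels were *Aqp4*, the water channel of the endfeet, and *Gja1*, which encodes connexin 43, the main gap junction protein of astrocytes. *Aqp4* had 8.75 in SAMR1 mice, 8.65 in SAMP8 controls and 8.54 in STEE-fed mice at 1434449_PM_at, and 6.54, 6.48 and 6.35 at 1425382_PM_a_at. At both, the STEE-fed mean was the lowest of the 3 groups, with differences of -0.21 and -0.19 from SAMR1 mice. The difference with STEE was -0.11 and -0.13, and 11.1% and 8.00% of all probe sets were lower by more. The spread with STEE was narrower at high signal. In the bins of signal around 8.07 and 9.30, on either side of the first set (8.65), the 5th percentile was -0.11 and -0.08. In those around 6.32 and 6.80, on either side of the second set (6.46), it was -0.18 and -0.15. The third probe set, 1447745_PM_at, was under the median signal and had 3.84, 3.89 and 3.89.

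*Gja1* had 10.11, 9.91 and 9.85 in SAMR1 mice, SAMP8 controls and STEE-fed mice at 1437992_PM_x_at. It was lower in SAMP8 controls than in SAMR1 mice at 5 of its 6 probe sets, by -0.20, -0.14, -0.18, -0.15 and -0.18, a narrow range. The sixth, 1415801_PM_at, went the other way, with 5.43, 6.04 and 5.97 and a difference of 0.61, or 1.53-fold higher. Only 0.440% of all probe sets were higher by more in this contrast. The gap of 0.81 between the highest and the lowest *Gja1* difference was matched or exceeded in 4.10% of the 439 genes with at least 6 probe sets. With STEE the 6 probe sets lay between -0.07 and 0.02 of the SAMP8 controls, so they agreed there to within 0.09.

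The cytosolic markers were *Aldh1l1*, which encodes a folate enzyme, and *S100b*, which encodes a calcium-binding protein. *S100b* had 8.81 in SAMR1 mice, 8.62 in SAMP8 controls and 8.56 in STEE-fed mice at 1434342_PM_at, and 7.93, 7.71 and 7.66 at 1419383_PM_at. Its probe sets gave nearly the same differences, -0.19 and -0.22 between the strains and -0.06 and -0.05 with STEE. They placed *S100b* in STEE-fed mice at -0.25 and -0.27 relative to SAMR1 mice, the lowest of the groups by both.

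*Aldh1l1* had 6.57, 6.42 and 6.59 at 1424400_PM_a_at, lowest in SAMP8 controls, with differences of -0.15 between the strains and 0.17 with STEE. Its second probe set, 1424401_PM_at, had 3.79, 3.96 and 3.77, highest in SAMP8 controls, with differences of 0.17 and -0.19. The second set was under the median signal of the array, and the mean over both sets was 0.01 between the strains and -0.01 with STEE. The sign of the *Aldh1l1* differences therefore depended on the probe set.

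The growth factor receptor *Fgfr3*, which in the adult cortex marks astrocytes, gave the largest strain difference of the 10 genes by their brightest probe sets. At 1421841_PM_at it had 8.71 in SAMR1 mice, 8.38 in SAMP8 controls and 8.50 in STEE-fed mice, so that SAMP8 controls were 1.26-fold lower than SAMR1 mice, a difference of -0.33. Of all probe sets, 1.80% were lower by more. The second *Fgfr3* probe set, 1425796_PM_a_at, had 4.55, 4.51 and 4.90. It was nearly level between the strains (-0.04) and higher with STEE by 0.39, or 1.31-fold, which only 0.184% of probe sets surpassed, while the first set was higher with STEE by 0.12. Both probe sets of *Fgfr3* were lower in SAMP8 controls and higher with STEE, but each difference of at least 0.25 was seen at only one of them. With the mean of the sets taken as the gene's value, the strain difference was -0.19 and no longer reached 0.25, and the difference with STEE was 0.26 and did.

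**Figure D2:**
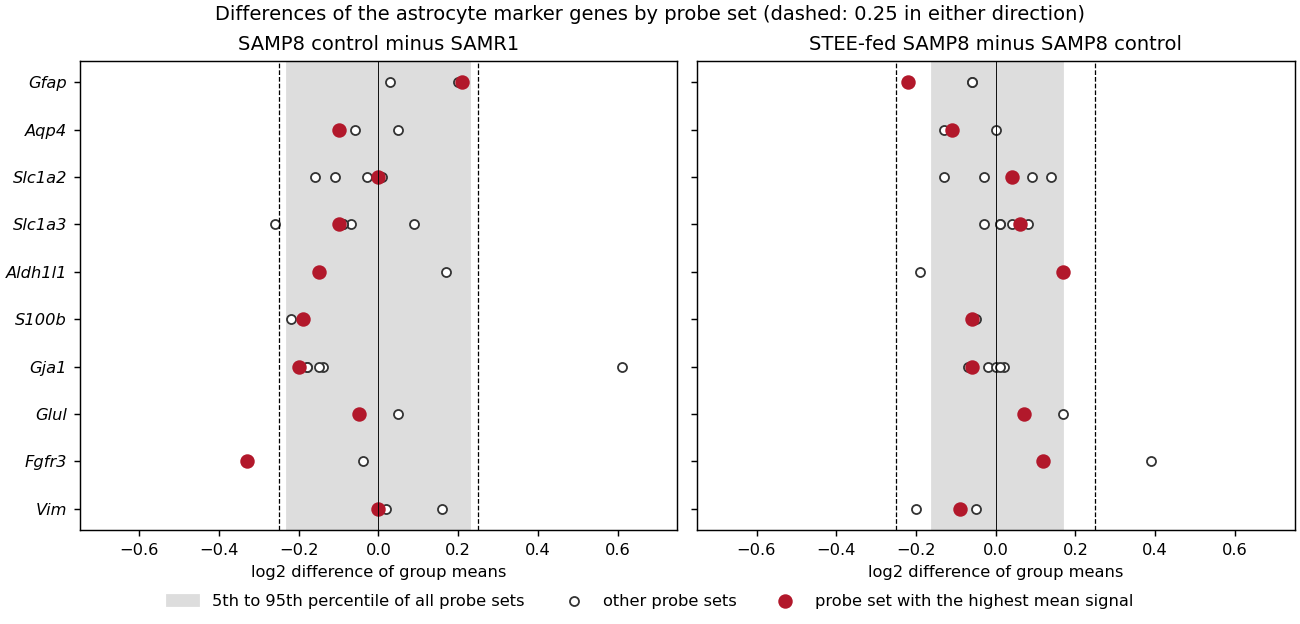
Log2 difference of group means (x axis) at each probe set of the 10 astrocyte marker genes (y axis), for SAMP8 control minus SAMR1 (left) and STEE-fed SAMP8 minus SAMP8 control (right). Red points are the brightest probe sets, white points the other sets, the grey band runs from the 5th to the 95th percentile of all probe sets, and the dashed lines lie at 0.25 in either direction; on the left only *Fgfr3* and single sets of *Slc1a3* and *Gja1* lie beyond the lines, and on the right only a set of *Fgfr3*.

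Of all probe sets, 49.6% were lower and 46.5% higher in SAMP8 controls than in SAMR1 mice. Counted by probe set, 21 of the 34 were lower, 11 higher and 2 equal in this contrast, with a median of -0.07. The 2 that were lower by at least 0.25 belonged to *Fgfr3* and *Slc1a3*, where 4.21% of all probe sets were lower by as much, and the 1 that was higher belonged to *Gja1*, where 4.32% were higher. With STEE 15 were higher, 17 lower and 2 equal, where 47.3% of all probe sets were higher and 48.0% lower. The 1 probe set of *Fgfr3* that was higher by at least 0.25 compares with 1.37% of all probe sets, and none was lower, compared with 1.30%. Probe sets of a gene share its transcripts and are not separate observations of it.

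Disagreement between probe sets was common on this array. Several probe sets were present for 10574 genes, of which 52.0% had both positive and negative differences between the strains and 53.8% with STEE, and the median gap between a gene's highest and lowest difference was 0.14 and 0.11. Among the astrocyte markers, *Gfap*, *S100b*, *Fgfr3* and *Vim* had no pair of probe sets with opposite signs in either contrast. *Gja1*, *Slc1a3* and *Aldh1l1* had the widest gaps between the strains, of 0.81, 0.35 and 0.32.

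**Figure D3:**
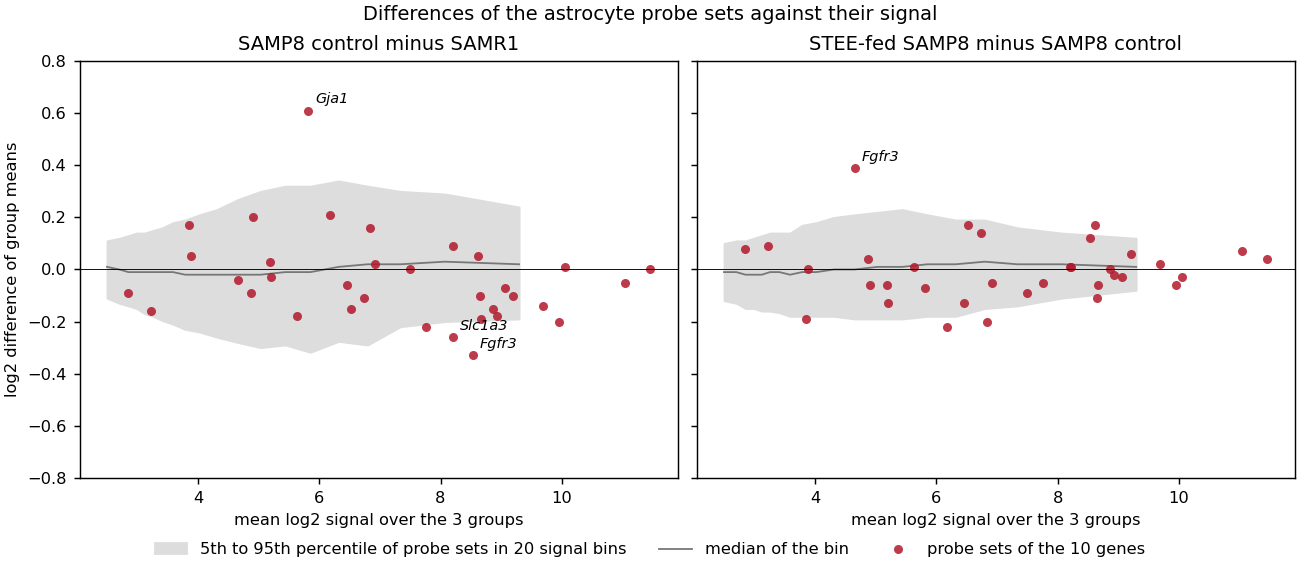
Log2 difference of group means (y axis) against the mean log2 signal over the 3 groups (x axis) for the 34 probe sets of the astrocyte marker genes (red), for SAMP8 control minus SAMR1 (left) and STEE-fed SAMP8 minus SAMP8 control (right). The grey band holds the 5th to 95th percentile and the line the median of all probe sets in 20 bins of signal; in the highest bin the band was -0.19 to 0.24 on the left and -0.08 to 0.12 on the right.

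A further 25 genes with known high expression in astrocytes were looked up in the same way, and none was under the median signal. Among all genes at or over it, 47.2% were lower in SAMP8 controls than in SAMR1 mice, and 5.47% lower by at least 0.25. In SAMP8 controls 22 of the 25 were lower than in SAMR1 mice, 2 were higher and 1 was equal, with a median difference of -0.17, and 6 were lower by at least 0.25 while none was higher by that much. The largest difference was that of *Slc6a11*, the GABA transporter GAT-3, with 7.29 in SAMR1 mice, 6.43 in SAMP8 controls and 6.39 in STEE-fed mice, a difference of -0.86, although its second probe set differed by 0.07. *Ntsr2*, a neurotensin receptor of astrocytes, followed with 8.73, 8.13 and 8.30, or -0.60. *Slco1c1*, a thyroid hormone transporter that vessel cells also make, had 8.58, 8.16 and 7.90, and was lower both between the strains (-0.42) and with STEE (-0.26). The amino acid transporter gene *Slc7a10* differed between the strains by -0.31, the adhesion molecule gene *Hepacam* by -0.30 and *Mlc1*, whose protein lies with HEPACAM in endfeet, by -0.27. The second *Hepacam* probe set differed by only -0.02, and the mean of both, -0.16, did not reach 0.25. *Ntsr2*, *Slco1c1*, *Slc7a10* and *Mlc1* were each read from their only probe set, and that of *Ntsr2* is marked as shared.

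With STEE the same 25 genes had a median difference of 0.02 from SAMP8 controls, with 17 higher and 8 lower, where 54.5% of genes at or over the median signal were higher. Beyond *Slco1c1*, only *Gjb6*, the gene of the second astrocytic gap junction protein connexin 30, reached 0.25, with 7.42 in SAMR1 mice, 7.38 in SAMP8 controls and 7.73 in STEE-fed mice. It was higher with STEE by 0.35 at its only probe set, where *Gja1* differed by -0.06. Among genes at or over the median signal, 1.96% were higher and 1.48% lower with STEE by at least 0.25. The mean log2 signal over the 25 genes was 8.10, 7.91 and 7.94 in SAMR1 mice, SAMP8 controls and STEE-fed mice, and over the 10 markers it was 8.83, 8.74 and 8.74.

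Of 34 genes described as rising in reactive astrocytes, 18 were under the median signal. Between the strains 47.1% of all genes were higher in SAMP8 controls, with 4.25% higher and 3.84% lower by at least 0.25. Of the 34 genes 24 were higher, 8 lower and 2 equal, with a median of 0.06. Higher by at least 0.25 were *Hspb1*, which encodes a small heat shock protein (5.39, 5.99 and 5.65, a difference of 0.60), *Ptgs2*, the cyclooxygenase gene that active neurons also express (5.58, 6.13 and 6.37, 0.55), *H2-T23* (0.44) and *S100a10* (0.25). The 3 probe sets of *S100a10* ranged from -0.12 to 0.46, and their mean, 0.20, did not reach 0.25. *H2-D1* was lower by that much (-0.25), but its 10 probe sets ranged from -1.14 to 0.88, and like *H2-T23* it belongs to a family of class I genes with near-identical sequences, so its value is uncertain. *Serpina3n*, a gene strongly induced in reactive astrocytes, had 5.40, 5.39 and 5.37, and *Lcn2*, another, was under the median signal with 2.36, 2.45 and 2.42. Both are named outside the rule on size and were chosen after their values were seen.

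With STEE the median of the 34 genes was -0.05, with 23 lower, 10 higher and 1 equal, where 46.9% of all genes were lower. By at least 0.25, 1.22% of all genes were lower and 1.40% higher. *Hspb1* was lower by at least 0.25 (-0.34), as was *Serping1* (-0.32, under the median signal), and *Fkbp5*, a gene induced by glucocorticoids, was higher by 0.46 with 6.51, 6.61 and 7.07. The 3 probe sets of *Fkbp5* were all higher with STEE but ranged from 0.06 to 0.46, and their mean of 0.24 did not reach 0.25. Both probe sets of *Hspb1* were higher in SAMP8 controls than in SAMR1 mice, by 0.35 and 0.60, and lower with STEE (-0.14 and -0.34), where their mean of -0.24 did not reach 0.25.

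**Figure D4:**
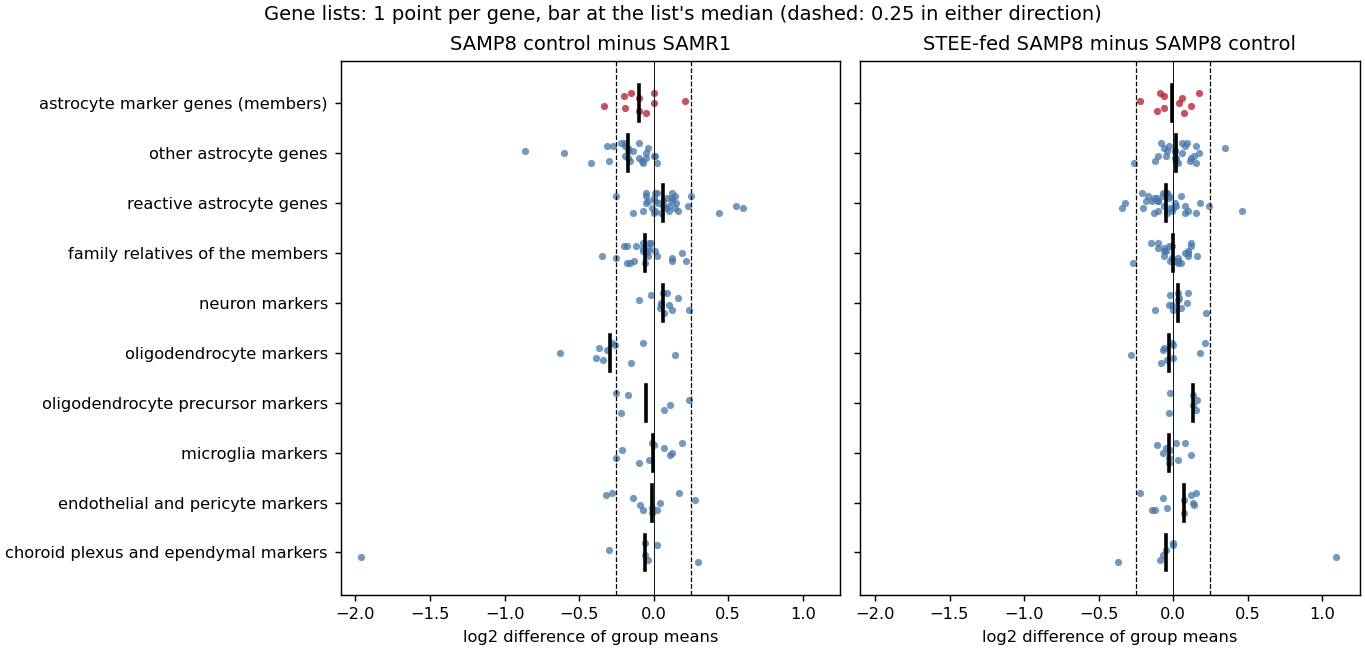
Log2 difference of group means (x axis) for each gene (points) of 10 gene lists (y axis), by its brightest probe set, with a bar at each list's median and dashed lines at 0.25 in either direction. For SAMP8 control minus SAMR1 (left) the medians were -0.10 for the astrocyte markers, -0.17 for the other astrocyte genes and -0.30 for the oligodendrocyte markers; for STEE-fed SAMP8 minus SAMP8 control (right) they were -0.01, 0.02 and -0.03.

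Markers of other cell types were read beside these values. Of 10 oligodendrocyte markers 9 were lower in SAMP8 controls than in SAMR1 mice, 7 of them by at least 0.25, with a median of -0.30 and the largest difference, -0.63, for *Mog*, a myelin surface glycoprotein gene. The next were *Mobp* (-0.39), *Opalin* (-0.37), *Cnp* (-0.34) and *Mag* (-0.31), all genes of myelin. The second *Opalin* probe set differed by -0.09, and the mean of both was -0.23, under the mark of 0.25. The mean log2 signal of the 10 markers was 8.95 in SAMR1 mice, 8.68 in SAMP8 controls and 8.67 in STEE-fed mice, and none was under the median signal. Among all genes at or over it, 47.2% were lower between the strains, and 5.47% lower by at least 0.25. *S100b*, which oligodendrocytes also express, was lower in the same contrast (-0.19). The part of oligodendrocytes in the differences of the astrocyte markers was not tested.

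Neuron markers went slightly the other way, with 10 of 12 higher in SAMP8 controls, none by 0.25, a median of 0.07 and a mean log2 signal of 9.76, 9.83 and 9.87. Among all genes at or over the median signal, 49.6% were higher in this contrast, with 6.52% higher and 5.47% lower by at least 0.25. The 6 markers of oligodendrocyte precursors had a median of -0.05 between the strains and 0.13 with STEE, with only *Cspg4* past 0.25 (-0.25 between the strains). The 10 microglia markers had medians of -0.01 and -0.03, and the 11 endothelial and pericyte markers had medians of -0.01 and 0.07. In the last list *Ly6c1* was higher in SAMP8 controls than in SAMR1 mice by 0.28, and *Pdgfrb* and *Cldn5* differed by -0.32 and -0.28, although *Pdgfrb* differed by -0.19 without shared probe sets. The only *Ly6c1* probe set is marked as shared and lists several gene symbols, so its value may not be that of *Ly6c1* alone. Of 7 choroid plexus and ependymal markers 5 were under the median signal; apart from *Ttr* (-1.96 between the strains and 1.09 with STEE), *Kcne2* differed by -0.30 between the strains and *Tmem212* by 0.30 and, with STEE, by -0.37.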

How the data were processed

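RNA was labelled with a 3′ IVT kit and hybridised to 6 Affymetrix mouse arrays, 2 mice per group. Per the labels and methods, the authors summarised probe intensities by robust multichip analysis (RMA, Expression Console) and used Transcriptome Analysis Console for the group comparisons. The genome build is not given in the sources used here. The deposited log2 values are averages per group with 2 decimals, in 2 tables that share the SAMP8 control column, which was identical in both. The fold changes, ANOVA p-values and adjusted p-values that the authors placed beside them hold their own comparisons and were not used. Without values per array, differences of means are descriptions with no test, and their precision is limited by 2 arrays per group.

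Control probe sets (40) were left out, leaving 45037. The brightest probe set, by its mean over the 3 groups, stood for its gene. The median of that mean, 4.16, marked low signal. Each list was searched by symbol; 1 of 149 genes was found by an older symbol in a RefSeq table. All members are named, and from each other list up to 5 genes per direction among those past 0.25, of which 1 is not reported here; any other name was chosen after its values were seen. The members and lists were chosen with earlier results of these data known. Alternatives were the mean or median over probe sets, probe sets not marked as shared, without low signal or with a single symbol, centring on column medians, and thresholds of 0.15 and 0.5. Marked as shared means that the name of the probe set carries _a, _s or _x. Python 3.11.15, numpy 2.4.6, pandas 2.3.3 and matplotlib 3.10.9 were used, and the reading and counting steps were tested on simulated data.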

Additional observations from a re-analysis of the deposited data

How the results depend on the processing

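No paired analysis was possible because the tables hold group means, and leaving out a replicate could not be run for the same reason. Between the strains, the count of astrocyte markers lower by the threshold went from 1 to 0 with the mean or the median over a gene's probe sets and at a threshold of 0.5, and to 4 at a threshold of 0.15, where 1 was higher. The median difference of the 10 markers, -0.10, was -0.038 with the mean over probe sets, -0.045 with their median and -0.08 after centring each group on its column median. With STEE, 1 marker was higher with the mean or the median over probe sets (*Fgfr3*), 1 was higher and 1 lower at a threshold of 0.15, and the median was -0.06 over the 9 markers with a probe set not marked as shared. In that setting *Glul*, with only marked sets, dropped out. *Aldh1l1* was read there from its set under the median signal (-0.19), so the change is not one of shared probes alone. The other alternatives left these counts as reported and these medians within 0.01. Among differences of at least 0.25 at named genes, that of *H2-D1* between the strains changed sign with the median over probe sets (0.06) and that of *Slc1a4* without shared probe sets (0.22), and centring took *H2-D1*, *S100a16* and *Cspg4* from -0.25 to -0.23. Some smaller differences also changed sign, among them *Gja1* with STEE (-0.06) without shared probe sets (0.02), *H2-D1* with STEE (-0.17) without shared probe sets (0.01) and *Fgfr2* between the strains (-0.06) with the mean or the median over probe sets (0.04). The sign for *Aldh1l1* turned in both contrasts under 3 of 6 alternatives, between -0.15 and 0.17 for the strains and between -0.19 and 0.17 with STEE. The cause was not tested.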

Other observations

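The relatives of the astrocyte markers in the same gene families, 24 genes, gave a median difference of -0.06 between SAMP8 controls and SAMR1 mice and 0.00 with STEE. Between the strains 18 were lower and 6 higher, and 2 were lower by at least 0.25, where 49.1% of all genes were lower and 3.84% lower by that much. *Slc1a4*, a neutral amino acid transporter gene of the glutamate transporter family, had 5.72 in SAMR1 mice, 5.37 in SAMP8 controls and 5.53 in STEE-fed mice, a difference of -0.35, but its 3 probe sets ranged from -0.35 to 0.22. *S100a16*, a relative of *S100b*, had 7.68, 7.43 and 7.42, and both of its probe sets, each marked as shared, differed by -0.25.

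Among the fibroblast growth factor receptors, *Fgfr2* was lower with STEE by -0.27, with 6.85, 6.79 and 6.52, where *Fgfr3* was higher by 0.12. Both *Fgfr2* probe sets were lower with STEE, by differences of -0.27 and -0.12, with a mean of -0.20 that did not reach 0.25, and no other relative reached 0.25 in that contrast. Of all genes, 1.22% were lower with STEE by at least 0.25. Outside the rule on size, *Slc1a1*, the neuronal glutamate transporter gene, had 8.16, 8.28 and 8.31 and was higher in SAMP8 controls at all 3 of its probe sets, by 0.12 to 0.21. *Nes*, which encodes the intermediate filament nestin of progenitors and some reactive astrocytes, had 5.31, 5.27 and 5.21, lowest in STEE-fed mice like *Vim*.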
